A study of Rattus norvegicus with 6 samples.

Results

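Housekeeping transcripts come from genes that most cells keep switched on, and they are commonly used as references against which other RNAs are measured. Such use assumes that the reference has the same level in the samples compared. The 8 described here were Actb, Hsp90ab1, B2m, Rplp1, Rpl13a, Hprt1, Gusb and Pop7, chosen by name. Each had 1 probe with 10 spots per array whose listed accession is the rat RefSeq transcript of the gene, and together they were 8 of the 14207 probes used (62 for linear transcripts and 14145 for circular RNAs, circRNAs).

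The study profiled circRNAs in the lungs of rats with acute respiratory distress syndrome (ARDS) induced by lipopolysaccharide, a bacterial membrane component that sets off inflammation. Lungs of 3 such rats were compared with lungs of 3 normal rats, all adult males. The labels give no strain, dose or time for either group, and they number the 6 rats separately, so each array was taken as 1 animal. Per the labels' protocols, total RNA was treated with the exonuclease RNase R to degrade linear RNA ahead of random-primed labelling with the dye Cy3.

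The housekeeping transcripts are linear, and their signals are therefore what was left after that digestion. A difference in the digestion and a difference in the tissue cannot be told apart, nor can fewer cells of a type and less RNA per cell. None of the 20 markers of lung epithelium, endothelium, leukocytes and erythroid cells that were listed has a linear probe with a matched symbol on the array, so neither the tissue label nor the cell makeup could be checked. A probe's brightness also depends on the probe, so brightness is not compared between genes as abundance. What follows compares each probe with itself across arrays, and ratios of probes across arrays.

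No spot of the probes used was saturated, and 19 of the 480 spots of the housekeeping probes were marked as outliers and left out. The 75th percentile of the log2 signal over circRNA probes averaged 7.4 ± 0.18 over normal lungs (SD, n = 3) and 6.16 ± 0.45 over ARDS lungs (SD, n = 3), with a difference of -1.24 (exact permutation p = 0.1). Scaled values below are log2 signals minus this percentile on the same array, and a scaled difference therefore asks whether a transcript moved more or less than the circRNAs. Per the file headers, ARDS replicate 3 had a scan date of its own and the other 5 arrays shared one.

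The housekeeping transcripts did not move together. With scaling, B2m, Hprt1, Gusb, Rplp1 and Pop7 rose in ARDS lung, 5 of 8, and 0 fell, also at an unadjusted p under 0.05 (limma, adjusted over all 13298 probes tested). Among all probes tested 19.8% were called, 11.6% higher and 8.19% lower, and among the 51 linear probes tested 35.3% were called, 31.4% higher and 3.92% lower. The share of the housekeeping transcripts is thus above the background, in 8 transcripts that were not independent of one another. Without scaling none of these 5 passed, and Actb and Rpl13a fell instead, 2 of 8, where 58.9% of all probes were called, 58.7% lower and 0.256% higher. Scaled, the groups did not overlap for 7 of the 8, against 44.9% of all probes tested, and unscaled for 3 (Actb, Hprt1 and Rpl13a), against 66.5%. The median scaled difference of the 8 was 1.04, against 0.05 over circRNAs and 0.55 over linear probes, and the median unscaled difference was -0.21, against -1.19 and -0.69.

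**Figure D1:**
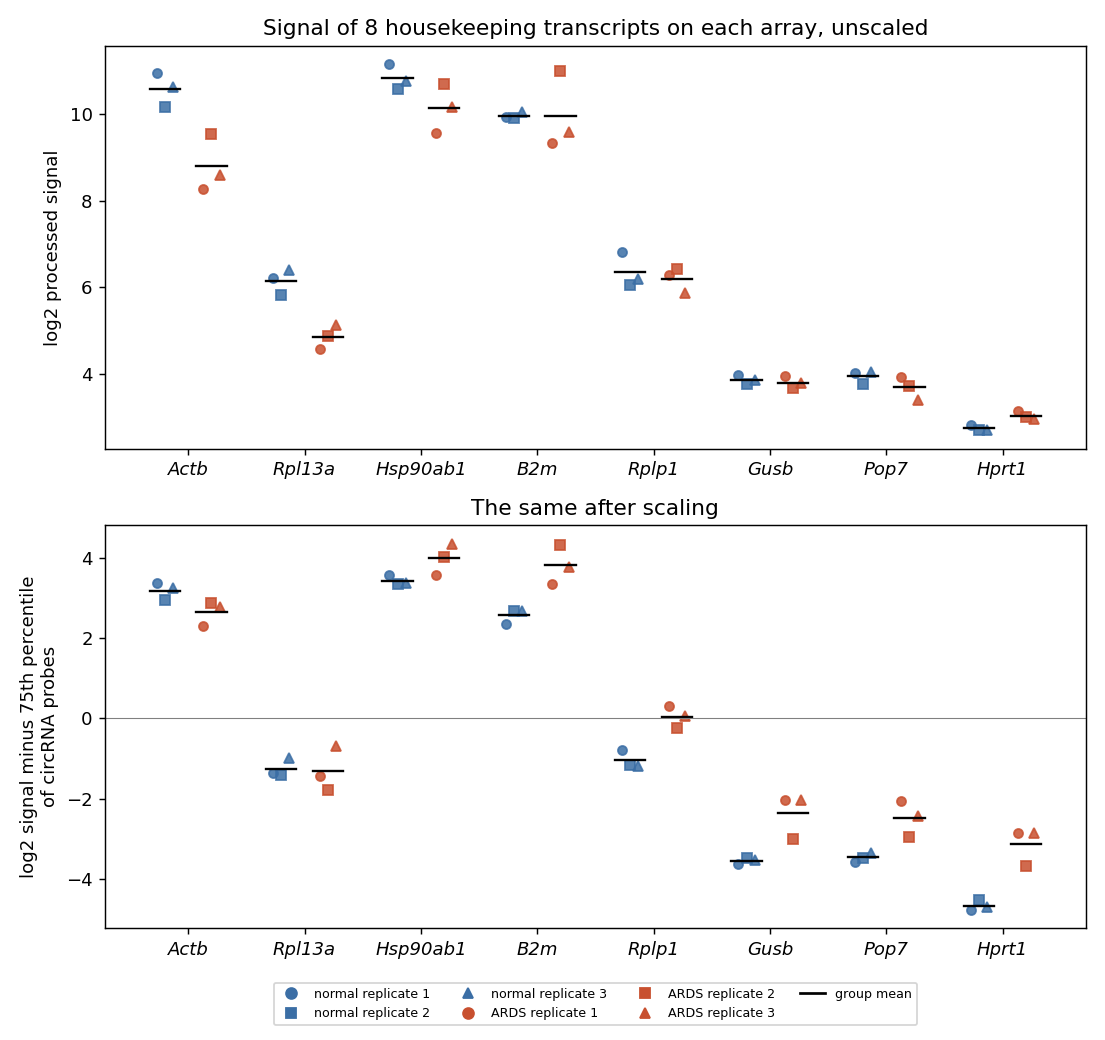
Log2 processed signal of the 8 transcripts on each array (upper panel) and the same minus the array's 75th percentile over circRNA probes (lower panel), with a symbol per replicate and a bar at the mean of each group of 3. Unscaled, the ARDS arrays lie below all normal arrays for Actb and Rpl13a, and scaled they lie above all normal arrays for B2m, Rplp1, Gusb, Pop7, Hprt1 and Hsp90ab1.

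The scaled calls depended on single arrays and on the scaling. Without normal replicate 1, normal replicate 2 or normal replicate 3 the count of 5 fell to 0 (limma). In each of these fits 5 of the 8 still had an unadjusted p under 0.05. Calls fell over the whole array in these fits, to 231, 3 and 3 of 13247 circRNAs, from 2618 with all arrays. The count for the 8 was 1 (B2m) without ARDS replicate 1, with 401 circRNAs called. It was 3 (B2m, Hprt1 and Rplp1) without ARDS replicate 3 or with the scan as a block, with 3636 circRNAs called in each. These are the same fit, since ARDS replicate 3 was alone in its scan, and scan and animal cannot be told apart. Quantile normalization left 3 (Hprt1, Gusb and Rplp1, with 19% of all probes called) and normexp background correction with quantile normalization left 1 (Rplp1, with 14.9% called).

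The regulatory sequence in front of these genes also differs, and the bases before the start of B2m and Hprt1 are printed as examples that differ in the elements searched. RefSeq promoters of the GRCr8 assembly were matched for 6 of the 8 genes, all but Actb and Pop7. The 250 bases before the start of B2m lie at chr3:129549080-129549329 and those of Hprt1 at chrX:137655494-137655743, both on the plus strand. In B2m the capitals mark, from left to right, a match to an interferon response core (GAAA repeated after 2 free bases), a match on the other strand to an NF-κB consensus with 1 free base, and the TATA-like TATATA. In Hprt1 they mark GC boxes (GGGCGG, the element bound by Sp1).
B2m: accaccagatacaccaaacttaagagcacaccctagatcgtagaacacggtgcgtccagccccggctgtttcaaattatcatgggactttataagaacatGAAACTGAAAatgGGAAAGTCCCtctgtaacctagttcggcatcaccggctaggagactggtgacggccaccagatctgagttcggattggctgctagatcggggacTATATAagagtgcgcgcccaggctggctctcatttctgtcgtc
Hprt1: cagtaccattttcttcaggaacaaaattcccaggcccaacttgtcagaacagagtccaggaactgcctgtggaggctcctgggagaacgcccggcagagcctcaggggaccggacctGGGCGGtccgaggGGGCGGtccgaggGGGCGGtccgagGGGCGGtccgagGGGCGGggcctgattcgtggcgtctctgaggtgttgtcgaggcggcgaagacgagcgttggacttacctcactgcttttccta

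Hprt1 held 5 GC boxes and no TATA box (TATAAA, or its variant TATATA) and no CCAAT, a make-up known from many constantly used genes. Hsp90ab1 held 5 GC boxes as well, together with a TATATA, and Rplp1 and Rpl13a held 1 each, whereas B2m and Gusb held none. Besides the elements in capitals, B2m held 1 match to TATAAA and 1 to CCAAT, both left in small letters. Of 33469 promoters of the same length, 30.5% held GGGCGG, 5.45% TATATA, 12.9% TATAAA, 34% CCAAT, 3.41% the interferon core and 0.314% the NF-κB consensus, on either strand. The interferon core and the NF-κB consensus were found in B2m and in none of the other 5 searched. In B2m these matches do not overlap each other, and a match in these letters is a description of the sequence, not evidence that a factor binds there.

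Actb encodes cytoplasmic β-actin, a main component of the cytoskeleton, and is among the most used references for lung RNA. Its processed signal was 1985, 1148 and 1580.0 in normal replicates 1 to 3 and 310.2, 748 and 384 in ARDS replicates 1 to 3. Every ARDS array lay below every normal array, and the lowest and highest arrays differed 6.4-fold, the widest range of the 8. Unscaled, Actb fell by 1.78 on the log2 scale (limma adjusted p = 0.00571). Scaled, it was 3.37, 2.94 and 3.24 in normal and 2.29, 2.88 and 2.77 in ARDS lung, again with no overlap, and the difference of -0.54 did not pass (SE 0.25, limma adjusted p = 0.154). Spots of Actb on 1 array differed with an SD of at most 0.0735 log2 units. The within-group SD between arrays was 0.55 unscaled and 0.27 scaled.

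Hsp90ab1, a constitutive form of the chaperone HSP90, had signals of 2281, 1524 and 1749 in normal and 756, 1656 and 1151 in ARDS lung. The groups overlapped through ARDS replicate 2, and the unscaled difference of -0.69 did not pass (limma adjusted p = 0.14). Scaled, the ARDS arrays lay above the normal arrays by 0.55 (SE 0.26, limma adjusted p = 0.153), with ARDS replicate 1 at 3.574 hardly above normal replicate 1 at 3.568. Its difference thus changed sign with the scaling and passed in neither setting.

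B2m encodes β2-microglobulin, the invariant chain of MHC class I, and is known as an interferon-responsive gene. Its signals in normal lung were nearly equal, at 973, 958 and 1066. In ARDS lung they were 644, 2032 and 767, on both sides of the normal range. The unscaled difference was 0.0044, with an SD of 0.083 in normal and 0.89 in ARDS lung. ARDS replicate 2 alone was high, and ARDS replicates 1 and 3 were below every normal array. Scaled, B2m rose by 1.25 (2.37-fold, SE 0.3, limma adjusted p = 0.0322), and all ARDS arrays, at 3.34, 4.32 and 3.77, were above the normal arrays at 2.34, 2.68 and 2.67. The array has no linear probe with a matched symbol for any of 12 other genes of antigen presentation and the interferon response, so B2m could not be set beside its pathway.

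Of the 2 ribosomal protein transcripts, Rplp1 was called higher with scaling and Rpl13a lower without it, and their ratio passed in 1 of its 2 fits only (limma adjusted p = 0.0252 and 0.158). Rplp1, whose product belongs to the acidic stalk of the large ribosomal subunit, had signals of 112, 66.5 and 73.1 in normal and 78.1, 85.4 and 58.7 in ARDS lung. Unscaled the groups overlapped, with a difference of -0.16 (limma adjusted p = 0.729), and scaled it rose by 1.08 (2.12-fold, SE 0.25, limma adjusted p = 0.0305). It was the only one of the 8 to pass with normexp and quantile normalization (0.63, limma adjusted p = 0.0324).

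Rpl13a, whose product is also part of the large subunit and takes part in translational silencing during the interferon response, had signals of 74.5, 56.1 and 84.2 in normal and 23.6, 29.2 and 35.1 in ARDS lung. The groups stood clearly apart, and unscaled it fell by 1.29 on the log2 scale (limma adjusted p = 0.00844). The circRNA percentile differed by almost as much (-1.24), and the scaled difference was -0.043 (SE 0.32, 95% confidence interval -0.79 to 0.71, limma adjusted p = 0.929). Rpl13a was the only one of the 8 whose scaled groups overlapped. Its interval still allows a change of more than 1.5-fold in either direction.

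Hprt1, an enzyme of purine salvage, Gusb, a lysosomal glucuronidase, and Pop7, a subunit of RNase P and RNase MRP, were dim and nearly constant in unscaled signal. Hprt1 had signals of 7.05, 6.44 and 6.45 in normal and 8.73, 7.91 and 7.76 in ARDS lung, higher on every ARDS array by a small margin (0.29, limma adjusted p = 0.424). Gusb stood at 15.6, 13.5 and 14.4 in normal and 15.4, 12.6 and 13.7 in ARDS lung, the narrowest range of the 8 (1.24-fold). For Pop7 the signals were 16.1, 13.4 and 16.5 in normal and 15.2, 13.1 and 10.5 in ARDS lung, with ARDS replicate 3 lowest.

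Relative to the circRNA percentile, which was lower in ARDS lung, all 3 were called higher. Hprt1 rose by 1.53 (2.9-fold, limma adjusted p = 0.0216), Gusb by 1.18 (2.27-fold, limma adjusted p = 0.0382) and Pop7 by 0.99 (1.98-fold, limma adjusted p = 0.0442). When the circRNAs were divided by brightness into 4 bins of equal size, these 3 transcripts fell into the dimmest, with signals of 2.46 to 19.7, a median scaled difference of 0.32 and 10.2% of its circRNAs called higher. The brighter bins, with Rpl13a in the next, Rplp1 in the one above and Actb, B2m and Hsp90ab1 in the brightest, had median scaled differences of 0.02, -0.089 and -0.08 and 9.12%, 9.94% and 16.9% called higher.

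The dim probes were measured close to the background. Spots of Hprt1 had a raw median brightness of 27.5 to 31.5 per array over a local background of 15.5 to 24.5, and 8 to 10 of its 10 spots per array were well above background. The lowest processed signal that the scanner software called well above background was 4.68 to 5.07 per array, and negative control spots had a median of 1.01 to 1.04. The SD over spots of 1 array reached 0.265 log2 units for Hprt1, 0.295 for Pop7 and 0.165 for Gusb. The largest SE of an array's mean over its spots was 0.084 for Hprt1, 0.052 for Gusb and 0.098 for Pop7, beside within-group SDs between arrays of 0.083, 0.13 and 0.22. How far closeness to background flattened these values was not tested. With normexp and quantile normalization, whose offset of 50 exceeds all 3 signals, their differences were 0.2, 0.24 and 0.2 and none passed.

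A ratio of 2 probes on 1 array is not altered by subtracting a constant such as the percentile from all log2 values, although quantile normalization and normexp do alter it, and the 28 pairwise ratios of the 8 transcripts were therefore compared. The groups did not overlap for 17 of the 28 log2 ratios (60.7%), against 50.7% of all 1275 pairs of linear probes tested, and for 14 with normexp background correction. With 3 arrays against 3, an exact permutation test cannot give a p below 0.1, which each of the 17 reached. Of the 13 pairs with Actb or Rpl13a 12 did not overlap, and of the 15 pairs among the other transcripts 5 did not. Actb and Rpl13a were the transcripts that fell without scaling on these same arrays, and their pairs share them. This split is therefore a description and no separate support.

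Each ratio could also be tested with limma across all probes, by taking one of its transcripts as the reference for every probe and then the other. Actb fell against 6 of the 7 other transcripts in both such fits, in which 19.5% of all probes were called with Actb as reference, 52% with B2m, 70.1% with Hprt1, 52.6% with Gusb, 54.8% with Rplp1, 24.4% with Hsp90ab1 and 46.6% with Pop7. The ratio of Actb to Hsp90ab1 was -0.2, -0.41 and -0.15 in normal and -1.29, -1.15 and -1.59 in ARDS lung, with every ARDS array below the normal arrays, a 2.13-fold fall (95% confidence interval of the log2 difference -1.74 to -0.43, limma adjusted p = 0.0298 and 0.04). Against B2m, Actb went from 1.03, 0.26 and 0.57 to -1.05, -1.44 and -1, a 3.44-fold fall (limma adjusted p = 0.00459 and 0.0272). Its fall was 4.2-fold against Hprt1, 3.29-fold against Gusb, 3.07-fold against Rplp1 and 2.88-fold against Pop7.

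The ratio of Actb to Rpl13a did not pass in either fit, which does not show that both changed equally. This log2 ratio was 4.74, 4.36 and 4.23 in normal and 3.72, 4.68 and 3.45 in ARDS lung, and the groups overlapped (difference -0.49, 95% confidence interval -1.46 to 0.48, limma adjusted p = 0.526 and 0.384). Rpl13a differed from B2m, Hprt1, Gusb, Rplp1 and Pop7 in the fits with those transcripts as reference, and from 0 of them in the limma fit with Rpl13a as reference, in which all 5 had an unadjusted p under 0.05 and 1.68% of all probes were called. The 2 fits of each of these 5 ratios, which ranged from 2.04-fold to 2.98-fold, therefore gave different calls with all arrays. With Rpl13a as reference the count of 0 became 5 without ARDS replicate 3, where 3928 of 13247 circRNAs were called, against 219 with all arrays. With the others as reference the count of 5 became 2, 1 and 1 without normal replicates 1, 2 and 3, and 2 without ARDS replicate 1 or ARDS replicate 2.

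**Figure D2:**
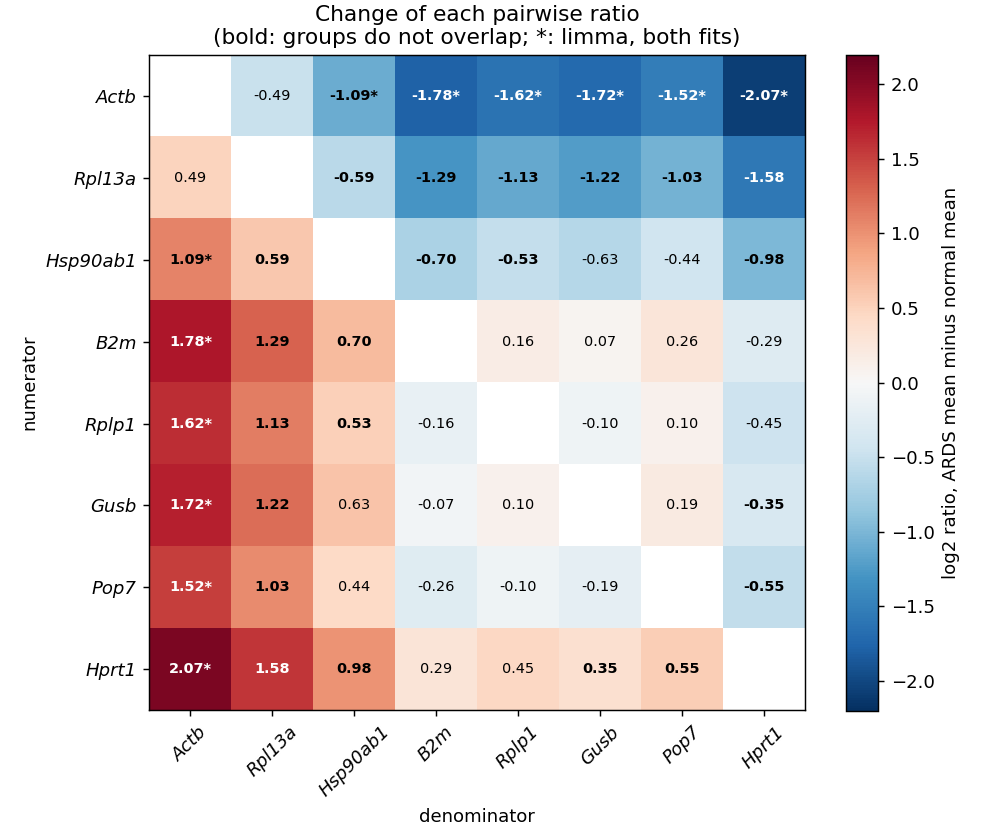
ARDS mean minus normal mean of the log2 ratio of each row transcript to each column transcript (3 arrays per group), red where the ratio is higher in ARDS lung and blue where it is lower. The row of Actb is marked against 6 of the 7 others, and the block of B2m, Rplp1, Gusb and Pop7 holds differences between -0.26 and 0.26.

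B2m, Rplp1, Gusb and Pop7 kept their ratios to one another closest between the groups, and none of their 6 ratios passed or had groups apart. The ratio of Gusb to Pop7 was -0.05, 0.01 and -0.2 in normal and 0.02, -0.06 and 0.38 in ARDS lung, a difference of 0.19 (95% confidence interval -0.52 to 0.9). Rplp1 to Gusb and Rplp1 to Pop7 differed by -0.096 and 0.096. For B2m to Gusb the difference was 0.068, but the interval ran from -1.01 to 1.15, since the ratio reached 7.33 in ARDS replicate 2 against 5.39 and 5.8 in ARDS replicates 1 and 3.

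The limma calls on ratios also depended on single arrays. Called in both fits were 6 ratios with all arrays, 0 without normal replicate 1, normal replicate 2 or normal replicate 3, 3 without ARDS replicate 1 and 10 without ARDS replicate 3. At an unadjusted p under 0.05 in both fits there were 12 with all arrays and 8, 10 and 7 without normal replicates 1, 2 and 3. In the fits with Actb as reference 6 of the 7 ratios were called with all arrays, 0 without any one normal array, and 3, 6 and 5 without ARDS replicates 1, 2 and 3. Of 13247 circRNAs, these Actb fits called 2572 with all arrays and 1, 2 and 7 without normal replicates 1, 2 and 3. They called 847, 3900 and 3300 without ARDS replicates 1, 2 and 3. In the fits with the other transcript as reference, 4 to 6 of the 7 were called whichever array was left out. Calls were common in most of those fits. Over left-out arrays, 7800 to 10039 of 13247 circRNAs were called with Hprt1 as reference and 4435 to 8927 with B2m. The range was 3779 to 8989 with Gusb, 4292 to 7508 with Rplp1 and 2737 to 7559 with Pop7. It was 0 to 4847 with Hsp90ab1 and 22 to 3928 with Rpl13a.

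Set against the mean of the other 7, Actb was again the transcript with the largest difference. Its log2 value against that mean was 4.54, 4.09 and 4.34 in normal and 2.46, 3.36 and 2.74 in ARDS lung, a difference of -1.47. Rpl13a differed by -0.91 and Hprt1 by 0.89, both with groups that did not overlap (exact permutation p = 0.1 for all 3, the smallest possible). The groups overlapped for B2m (0.57), Gusb (0.49), Rplp1 (0.38), Pop7 (0.27) and Hsp90ab1 (-0.23). Since each mean holds the other transcripts, a fall of Actb raises all the rest, and these values are not independent of one another.

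**Figure D3:**
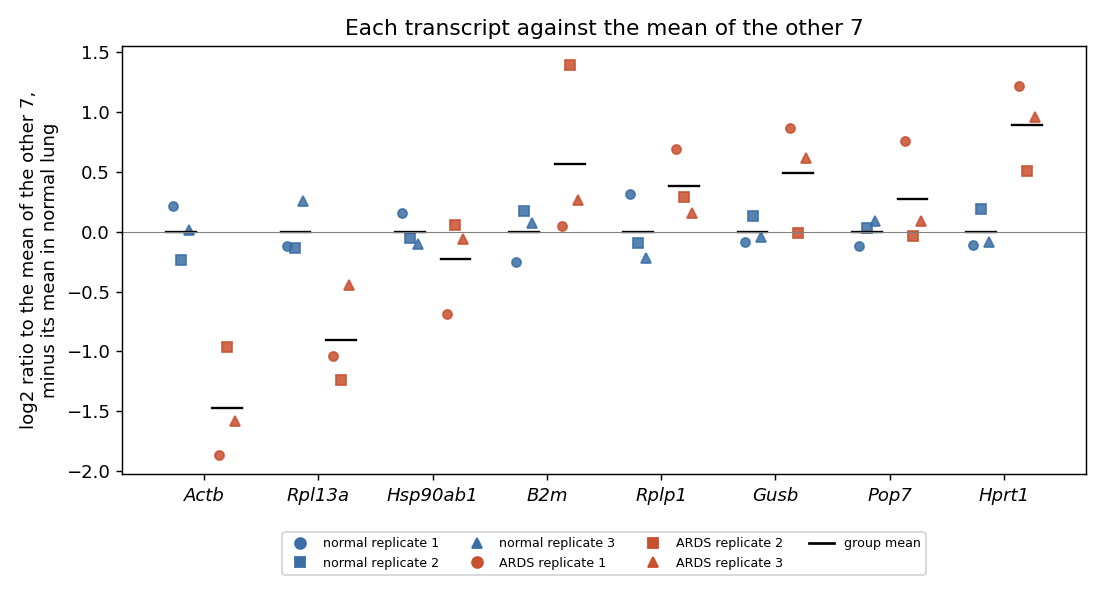
Log2 ratio of each transcript to the mean of the other 7 on the same array, minus its mean over the 3 normal arrays, with a symbol per replicate and a bar at each group mean. All ARDS arrays lie below the normal arrays for Actb and Rpl13a and above them for Hprt1, and B2m stands high on ARDS replicate 2 alone.

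Evenness was summarised for each transcript by the mean SD, over the 6 arrays, of its 7 log2 ratios, the M value used to rank reference genes. Low values mean that a transcript kept its ratios to the others. Pop7 (0.51), Rplp1 (0.521), Gusb (0.534) and Hsp90ab1 (0.555) were lowest, Hprt1 was at 0.623, B2m at 0.7 and Rpl13a at 0.71, and Actb was highest at 0.917. The order below Actb depended on single arrays. Without ARDS replicate 2 B2m went from 0.7 to 0.472, the lowest of the 8, with Pop7 at 0.497 and Gusb at 0.513, and without ARDS replicate 1 Hsp90ab1 (0.394) came next to Pop7 (0.392). With normexp background correction Rpl13a was at 0.438 and Hprt1 at 0.404, both below Hsp90ab1 at 0.488. Actb stayed highest in each of these settings, between 0.794 and 0.986 over left-out arrays. The median SD of the 28 ratios was 0.617, against 0.68 over all pairs of linear probes, so the 8 were about as uneven as the linear transcripts in general.

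M does not part a difference between groups from scatter within them. With the group means taken out, B2m had the highest mean SD, 0.578, and the other 7 lay between 0.369 (Hprt1) and 0.45 (Actb). Actb was thus uneven mainly between the groups, and B2m more within them, where ARDS replicate 2 stood apart. Removing the least even transcript step by step took out Actb, Rpl13a, B2m, Hsp90ab1, Hprt1 and Rplp1 in this order and left Gusb and Pop7, with an SD of their log2 ratio of 0.195. Both are dim probes of nearly equal and nearly constant signal, for which the limits near background given above apply.

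**Figure D4:**
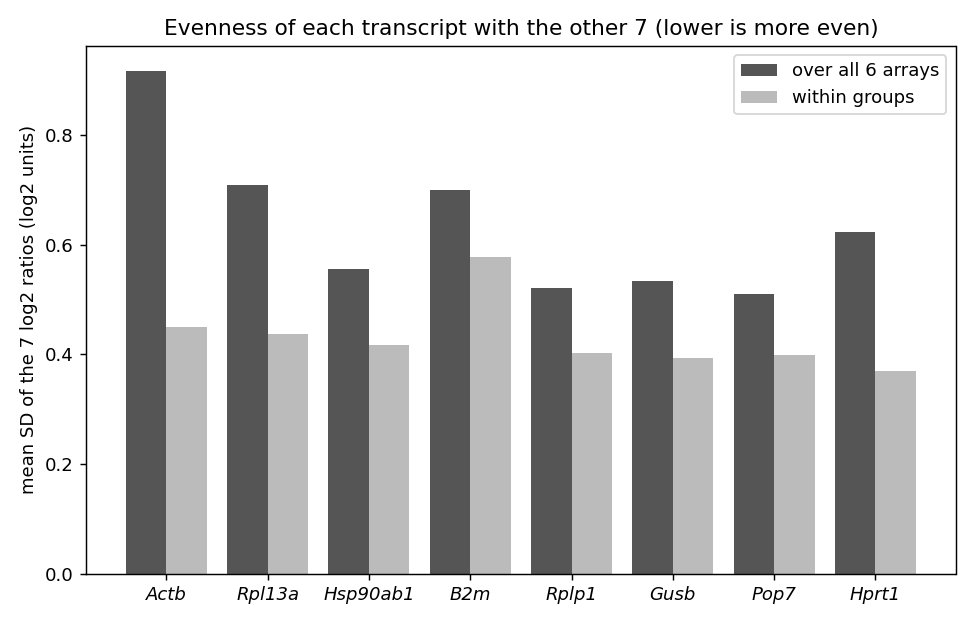
Mean SD of the 7 pairwise log2 ratios of each transcript over all 6 arrays (dark bars) and within groups, pooled over normal and ARDS lung (light bars). Actb has the highest dark bar, 0.917, and B2m the highest light bar, 0.578.

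Among linear transcripts outside the 8, the 22 tested probes with a symbol were searched for those with the smallest SD of the log2 ratio over the 6 arrays. Actb was most like Dlg4, a postsynaptic scaffold protein (SD 0.22), and Ndfip2, an adaptor of ubiquitin ligases (0.233). For Rpl13a these were Trim2 (0.224) and Pdcd10 (0.282), for Hsp90ab1 the catalogue probe of Ldha, lactate dehydrogenase A (0.166), and Mex3c (0.219), and for B2m the same Ldha probe (0.515) and Cse1l (0.553). B2m thus had no close companion among them. Hprt1 went with Ppp2r2b (0.137) and Map2 (0.157), Gusb with Map2 (0.108) and the custom probe of Ldha (0.171), Rplp1 with Map2 (0.274) and Cse1l (0.286), and Pop7 with Map2 (0.221) and the glycolytic Pgk1 (0.234). A small SD of a ratio can also come from probes that are merely flat, and the limits near background apply to Hprt1, Gusb and Pop7 here.

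Of 33 other genes listed as possible references, 4 had a linear probe with a matched symbol, Sdha, Pgk1, Ldha and Eif4b, with 5 probes in all. The list was made with earlier results of these data known, so these values are a description only. With scaling, Eif4b, a translation initiation factor, fell (difference -1.2, limma adjusted p = 0.0264). The custom probe of Ldha rose with scaling (1.02, limma adjusted p = 0.0446), while its catalogue probe did not pass (0.52, limma adjusted p = 0.148). Sdha of the respiratory chain (1.6, limma adjusted p = 0.0521) and Pgk1 (0.87, limma adjusted p = 0.118) did not pass either. Unscaled, the differences were -2.45 for Eif4b, -0.22 for the custom and -0.72 for the catalogue probe of Ldha, 0.36 for Sdha and -0.38 for Pgk1. Of 14 genes of acute inflammation, only Nlrp3, an inflammasome sensor, had a linear probe with a matched symbol. With scaling it rose by 2.11 (limma adjusted p = 0.0134), and its unscaled difference was 0.86. Its mean signal was 8.35 in normal and 15.2 in ARDS lung, as dim as Hprt1, Gusb and Pop7, so the limits near background apply to it too.

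The choice of reference set what the circRNA comparison showed. With each transcript in turn subtracted from every circRNA on the same array, the same 13247 circRNAs were tested again (limma). Actb as reference gave 2430 circRNAs higher and 142 lower in ARDS lung (19.4% called). B2m gave 19 higher and 6878 lower (52.1%), and Hprt1 19 and 9269 (70.1%). For Gusb there were 32 and 6952 (52.7%), for Rplp1 65 and 7202 (54.9%), and for Pop7 61 and 6129 (46.7%). So an Actb reference reads most called circRNAs as raised, and each of these 5 reads nearly all as lowered. Without any scaling or reference, 33 were called higher and 7787 lower.

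The remaining transcripts lay between. Hsp90ab1 gave 103 higher and 3127 lower (24.4%), and Rpl13a 127 higher and 92 lower (1.65%), with 3038 at an unadjusted p under 0.05. The median circRNA difference was 0.094 with Rpl13a, -0.5 with Hsp90ab1, 0.59 with Actb and -1.48 with Hprt1, while the 75th percentile gave 0.051, with 1531 higher and 1087 lower. The percentile was taken from these same circRNAs, so a small median difference and a low scatter with it are partly built in. Nearness to its result is therefore no sign of a better reference. The scatter between arrays differed too. The median within-group SD of the circRNAs was 0.516 with Rpl13a, 0.346 with the percentile and 0.448 without any scaling. With Rplp1 (0.434) and Hsp90ab1 (0.446) it was just below the unscaled value, and with Actb (0.462), Pop7 (0.461), Hprt1 (0.457), Gusb (0.496) and B2m (0.518) above it.

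Averaging the 8 as a joint reference brought the scatter down to 0.359 but not the direction to balance. It gave 207 circRNAs higher and 5855 lower (45.8%), with a median difference of -0.7. The mean log2 signal of the 8 averaged 6.8 ± 0.2 over normal lungs (SD, n = 3) and 6.31 ± 0.26 over ARDS lungs (SD, n = 3). The difference was -0.49 (exact permutation p = 0.2), smaller in size than that of the circRNA percentile.

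**Figure D5:**
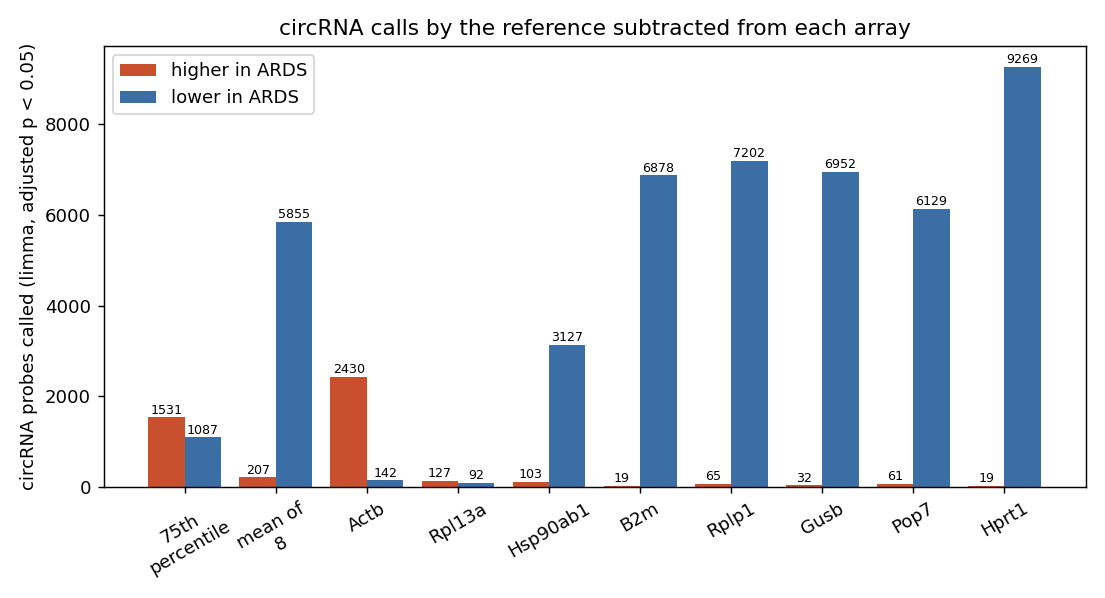
Number of circRNA probes called higher (red) and lower (blue) in ARDS lung (limma, adjusted p under 0.05, 13247 tested) with the 75th percentile, the mean of the 8 transcripts or a single transcript subtracted from each array. Actb gives 2430 higher and 142 lower, whereas Hprt1 gives 19 higher and 9269 lower.

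These counts leaned on single arrays to different degrees. With Actb the count of 2572 was 1, 2 and 7 without normal replicates 1, 2 and 3 (with 3982, 4573 and 3311 at an unadjusted p under 0.05, against 5064 with all arrays), 847 without ARDS replicate 1 and 3900 without ARDS replicate 2. With Hsp90ab1 it was 3230, and 7 and 0 without normal replicates 2 and 3 (limma, with 3564 and 3316 at an unadjusted p under 0.05), 4847 without ARDS replicate 1 and 1404 without ARDS replicate 2. With Rpl13a it was 219, and 599, 27 and 32 without normal replicates 1, 2 and 3 (with 2379, 1970 and 1438 at an unadjusted p under 0.05), 136 without ARDS replicate 1, 22 without ARDS replicate 2 and 3928 without ARDS replicate 3.

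The counts with the other references were larger and moved less. Without normal replicate 3 the count of 6897 with B2m was 4702, and without normal replicate 1 it was 4435. Gusb went from 6984 to 3779 without normal replicate 3 and to 4421 without ARDS replicate 1, and Rplp1 from 7267 to 4292 without normal replicate 3. Pop7 went from 6190 to 3897, 3237 and 2737 without normal replicates 1, 2 and 3, and the mean of the 8 from 6062 to 3871 and 3508 without normal replicates 2 and 3. With Hprt1, 7800 to 10039 of 13247 were called whichever array was left out, from 9288 with all. Hprt1, Gusb and Pop7 were dim and nearly constant in unscaled signal, and without any scaling or reference 7820 circRNAs were called. A large and steady count is therefore no sign of a good reference, and the limits near background given above apply.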

How the data were processed

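Each of 6 rat lung RNAs (3 normal, 3 ARDS) was hybridised to a 1-colour Arraystar circRNA array. Scans were quantified in Agilent Feature Extraction, version 11.0.1.1 per the submitters' processing notes. The processed signal is an intensity background-subtracted by that software, and per the file headers its dye normalization used 0 probes. The authors' deposited log2 table lists none of the 62 linear probes and was not used for values.

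Outlier spots (20 to 42 per array) were left out, log2 signals of a probe's spots were averaged, and each array's 75th percentile over circRNA probes was subtracted. Probes well above background (over 0.5 of their spots) on at least 3 arrays were tested with limma 3.58.1 (R 4.3.3). The tests were two-sided, with p-values adjusted by Benjamini-Hochberg over all these probes and a threshold of 0.05. For reference fits, a transcript's value replaced the percentile. Confidence intervals are at 95% from the same fits and cover the spread between these arrays. The number of arrays limits the precision. Accessions were matched to symbols through a RefSeq gene table (39 of 62 linear probes). The probe of Pop7 has a catalogue name of another series than the rest of its kind and was kept, as its accession is the gene's.

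The transcripts, lists and tests were chosen with earlier results of these data known. All 8 are named, with other reference genes on the array and, per transcript, the 2 with the most constant ratio. Alternatives were other scalings, filters, variance models, spot summaries, blocks and left-out arrays, and normexp on the median pixel signal. The limma test of ratios was chosen after the files were opened. The procedure was tested on simulated data, of which no outcome is reported here, so nothing above rests on it.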

Additional observations from a re-analysis of the deposited data

How the results depend on the processing

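With 3 arrays per group, leaving out 1 array changed most counts of calls. The count of housekeeping transcripts called (5) was 3 with quantile normalization, 2 without scaling, 1 with normexp and quantile normalization and 3 with the scan as a block, and it ranged from 0 to 5 over left-out arrays. The scan block gives the same fit as leaving out ARDS replicate 3 and is no separate check. Linear probes called (18) numbered 7 with normexp and ranged from 0 to 28, and circRNAs called (2618) numbered 7820 without scaling and ranged from 3 to 3636. Without scaling the differences of Gusb (-0.063), Rplp1 (-0.16), Hsp90ab1 (-0.69) and Pop7 (-0.26) changed sign, and the near-zero difference of Rpl13a did so without normal replicate 3 (0.089), ARDS replicate 1 (0.019) or ARDS replicate 2 (0.20), with a range of -0.35 to 0.20 over left-out arrays. Over left-out arrays the circRNA counts ranged from 1 to 3900 with Actb as reference, 4435 to 8927 with B2m, 7800 to 10039 with Hprt1, 3779 to 8989 with Gusb, 4292 to 7508 with Rplp1, 22 to 3928 with Rpl13a, 0 to 4847 with Hsp90ab1, 2737 to 7559 with Pop7 and 3508 to 6389 with the mean of the 8. Pairs with groups apart (17) ranged from 17 to 23, but leaving out an array cannot lower this count, so its range is no sign of stability. Pairs called in both limma fits (6) ranged from 0 to 10. The mean M (0.634) ranged from 0.54 to 0.689.

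Same-numbered rats are separate animals, and deviations from the group means correlated at 0.588, -0.228 and 0.138 for numbers 1 to 3, so the numbers were not taken as pairs. With the number as a replicate block, 5 transcripts were called, and the circRNA count was 2503 with Rpl13a as reference and 1965 with Hsp90ab1. Other alternatives kept the remaining counts within 1.5 times. The deposited table could not serve as an alternative, since it lists no linear probe. Distance from background limits Hprt1, Gusb and Pop7.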
